A study of Mus musculus with 6 samples.

Results

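The 10 genes described here carry the classical machinery of antigen presentation. They were chosen by name, as the genes whose Ensembl identifiers map to these symbols in the GENCODE M21 mouse annotation, and all 10 were among the 21603 genes of each table. H2-K1, H2-D1, B2m, Tapbp and Nlrc5 make up the class I set of 5 genes, and H2-Aa, H2-Ab1, H2-Eb1, Cd74 and Ciita the class II set of 5 genes.

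Ribosome-bound RNA was sequenced from mouse lung at postnatal day 8, in 3 control and 3 Yap1,Wwtr1 iPCKO samples of strain C57BL/6. All mice carried Pdgfrb(BAC)-CreERT2, a tamoxifen-inducible Cre under Pdgfrb regulatory sequence that is active in pericytes, and the Rpl22HA allele, through which recombined cells tag the ribosomal protein RPL22 with HA for immunoprecipitation from whole lung. Tamoxifen was given to both groups shortly after birth. The iPCKO mice had floxed alleles on both copies of Yap1 and Wwtr1 (labelled Yap1-/-;Wwtr1-/-), and in the controls 1 copy of each was floxed and the other wild type (labelled Yap1+/-;Wwtr1+/-), so controls were heterozygous after recombination rather than wild type. Cre activity follows PDGFRβ rather than lung pericytes alone, and the pulldown also holds some RNA of other lung cells. The labels do not say whether a sample is 1 lung or a pool, and p-values below measure the spread between these samples.

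Class I molecules are made by nearly all nucleated cells. A heavy chain (H2-K1 or H2-D1 here) pairs with β2-microglobulin, encoded by B2m, and receives a peptide of cytosolic origin in the endoplasmic reticulum with the help of tapasin, encoded by Tapbp, for display to CD8 T cells. Class II molecules are largely restricted to dendritic cells, macrophages and B cells, and in lung are also found on alveolar type II epithelial cells. They pair an α chain (H2-Aa) with a β chain (H2-Ab1, H2-Eb1), are escorted by the invariant chain CD74 and present peptides from endosomes to CD4 T cells. Mice of the C57BL/6 haplotype make no I-E protein, since its α chain gene is defective, although the β chain gene H2-Eb1 is transcribed. NLRC5 and CIITA are related transactivators of the class I and class II genes, respectively. Neither binds DNA by itself, and both are recruited by RFX, CREB and NF-Y proteins bound at an array of promoter elements, and both are induced by interferon-γ.

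Since class I and class II genes share promoter elements, the 200 bases before the RefSeq transcription start (GRCm38.p6) are shown for the 5 chain genes that the table of promoters holds. It has no entry for Nlrc5, H2-Ab1, Cd74 or Ciita. Capitals mark CCAAT (the core of the Y box, bound by NF-Y), TGACG (the core of the X2 box, bound by CREB) and GAAA followed by any 2 bases and GAAA (the core of an interferon-stimulated response element, ISRE, bound by IRF proteins), each searched on both strands, so that ATTGG is a CCAAT of the opposite strand. H2-K1 is shown at chr17:34000334-34000533 (minus strand), H2-D1 at chr17:35262894-35263093 (plus strand), B2m at chr2:122147487-122147686 (plus strand), H2-Aa at chr17:34287824-34288023 (minus strand) and H2-Eb1 at chr17:34305667-34305866 (plus strand). The H2-D1 window lies inside the gene as GENCODE draws it, which starts further upstream.
H2-K1: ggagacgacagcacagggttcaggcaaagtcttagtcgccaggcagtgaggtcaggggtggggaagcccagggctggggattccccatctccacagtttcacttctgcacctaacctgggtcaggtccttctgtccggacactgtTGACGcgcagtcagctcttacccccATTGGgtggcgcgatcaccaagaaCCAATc
H2-D1: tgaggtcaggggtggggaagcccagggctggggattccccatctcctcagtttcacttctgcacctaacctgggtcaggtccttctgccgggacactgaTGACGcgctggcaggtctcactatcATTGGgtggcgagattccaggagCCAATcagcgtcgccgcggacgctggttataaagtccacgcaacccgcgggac
B2m: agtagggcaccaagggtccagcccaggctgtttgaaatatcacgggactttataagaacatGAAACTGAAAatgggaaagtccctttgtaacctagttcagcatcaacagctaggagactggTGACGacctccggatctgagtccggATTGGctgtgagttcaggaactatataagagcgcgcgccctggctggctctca
H2-Aa: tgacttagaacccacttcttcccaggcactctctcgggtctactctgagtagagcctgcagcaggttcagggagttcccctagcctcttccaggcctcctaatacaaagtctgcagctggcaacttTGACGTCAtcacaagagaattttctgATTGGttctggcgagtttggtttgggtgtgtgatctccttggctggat
H2-Eb1: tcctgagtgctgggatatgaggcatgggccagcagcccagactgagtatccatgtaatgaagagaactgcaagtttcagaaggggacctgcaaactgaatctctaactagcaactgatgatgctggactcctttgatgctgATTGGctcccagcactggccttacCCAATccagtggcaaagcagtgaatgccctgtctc

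Over the full window of 250 bases before to 50 bases after the start, CCAAT was found in all 6 member promoters in the table, Tapbp included, and in 37.9% of the 27025 promoters of the table. TGACG was found in 4 of the 6 (H2-K1, H2-D1, B2m and H2-Aa) and in 21% of all promoters. These 4 also held CCAAT, a combination present in 8.05% of all promoters. With -1 as the last base before the start, TGACG began at -101 in H2-D1 and the first ATTGG at -76. The same elements began at -55 and -30 in H2-K1, at -78 and -53 in B2m, and at -74 and -48 in H2-Aa. H2-K1 has 2 RefSeq starts, and its sequence and positions are given from the more downstream one. Its distances to the start therefore depend on that choice. H2-Eb1 and Tapbp held no TGACG in the window. In H2-Aa the TGACG overlaps a CGTCA, its match on the opposite strand. The ISRE core was found in B2m only of the 6, from -139 to -130, and in 3.49% of all promoters. GGAATG, the core bound by the TEAD partners of YAP1 and TAZ, was found in none of the 6 and in 14.6% of all promoters. A missing match says only that these letters are not in this window. The H2-K1 and H2-D1 promoters shared an unbroken stretch of 47 bases, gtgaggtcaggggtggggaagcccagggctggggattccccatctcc.

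Values are RPKM, that is reads scaled to exon length and to library depth. The smallest steps between low values gave a depth of 17.4 to 34.7 M reads in controls and 14.3 to 39.6 M in iPCKO samples. Yap1 was 12.4 ± 0.859 RPKM in controls and 5.61 ± 0.314 in iPCKO samples (SD, n = 3), a log2 fold change of -1.12 (limma adjusted p = 0.000175). Wwtr1, which encodes TAZ, was 60.4 ± 9.48 and 62.0 ± 1.63 RPKM (log2 fold change 0.05, adjusted p = 0.822), and exon-level values that could show a deletion were not analysed here. Transcripts of 4 Y-linked genes summed to 35.0 and 40.8 RPKM in controls 1 and 3 but to at most 0.0750 RPKM in control 2 and the 3 iPCKO samples, so sex and genotype are partly confounded in this design. Neutrophil markers also set the iPCKO samples apart, with a summed level of 79.3 to 114 RPKM in controls against 430, 1913 and 4673 RPKM in iPCKO 1, 2 and 3. Most of this sum came from S100a8 and S100a9, at 727 and 981 RPKM in iPCKO 2 and 1726 and 2346 RPKM in iPCKO 3. Pdgfrb, named here as the gene behind the Cre line, had the highest control mean of 10 pericyte markers, at 1533 ± 151 RPKM. In iPCKO samples it was at 1337 ± 131 RPKM. There Postn, named after its values were seen, was higher in mean at 1444 ± 103 RPKM, with overlapping ranges. Of the 10 markers, 3 (Cspg4, Kcnj8, Abcc9) rose and 2 (Rgs5, Notch3) fell, beside 4.11% of all tested genes higher and 2.68% lower. In RNA from a whole tissue pulldown, fewer cells of a type and less RNA per cell cannot be told apart.

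Among the members, B2m had by far the highest level per kilobase, at 185 ± 25.1 RPKM in controls. Cd74 followed at 28.1 ± 2.19 RPKM, then Tapbp at 22.3 ± 0.841, H2-D1 at 20.7 ± 3.51 and H2-K1 at 10.8 ± 1.71, and the ranges of Tapbp and H2-D1 overlapped. The class II chains H2-Eb1 (7.68 ± 1.48 RPKM) and H2-Aa (7.51 ± 1.05) did not differ beyond their spread, and H2-Ab1 lay lower at 5.02 ± 0.679. Ciita at 1.62 ± 0.138 and Nlrc5 at 0.482 ± 0.164 were the least abundant. In iPCKO samples H2-D1 stood above Cd74 in mean, with overlapping ranges, and Nlrc5 (1.66 ± 1.21 RPKM) and Ciita (1.27 ± 0.0577) also overlapped. Put against all 12034 tested genes, B2m ranked between 122 and 150 in controls and between 65 and 116 in iPCKO samples, and Cd74 between 1763 and 1897 and between 1390 and 1737.

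**Figure D1:**
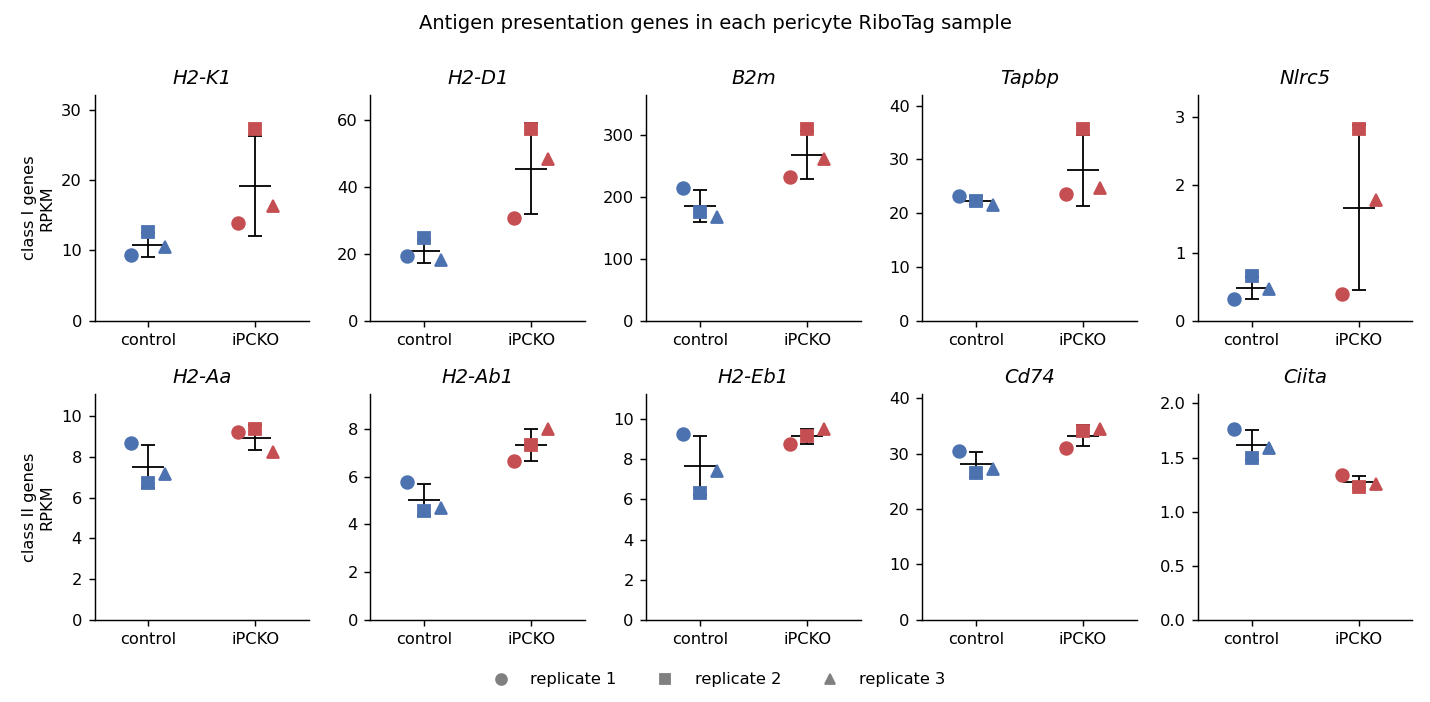
RPKM of the 10 members (vertical axis, from 0) in each of the 3 control (blue) and 3 iPCKO (red) samples, with symbols for the replicate number and lines for the mean and SD. The iPCKO samples lay above all controls for H2-K1, H2-D1, B2m, Tapbp, H2-Ab1 and Cd74, below them for Ciita, and among them for part of the samples of Nlrc5, H2-Aa and H2-Eb1.

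The comparison of iPCKO with control samples asked which presentation genes differ when pericytes lose both copies of Yap1 and Wwtr1. All 5 class I members had higher means in iPCKO samples, by 1.25 times for Tapbp up to 3.45 times for Nlrc5, with H2-D1 at 2.19 times, H2-K1 at 1.77 times and B2m at 1.44 times. The class II chains and Cd74 were higher in mean by 1.2 to 1.5 times, while Ciita was lower. No member passed the thresholds of adjusted p below 0.01 and absolute log2 fold change above 0.5 in the main limma test of log2(RPKM + 0.1). The count was 0 of 4 class I members tested and 0 of 5 class II members, beside 6.79% of all 12034 tested genes (495 higher, 4.11%, and 322 lower, 2.68%). At an unadjusted p below 0.05, 3 class I and 2 class II members were higher and none lower, beside 29.7% of tested genes (16.1% higher and 13.6% lower). At an adjusted p below 0.05 with the same fold limit, H2-D1, B2m and H2-Ab1 passed, all higher, beside 10.9% of tested genes (6.66% higher). Limma voom on reads recovered from the RPKM steps, chosen after seeing the data, called 0 members at the main thresholds.

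H2-D1 encodes the D heavy chain (ENSMUSG00000073411, chr17:35262730-35267499, plus strand, GRCm38). It was at 19.4, 24.7 and 18.1 RPKM in controls 1, 2 and 3 and at 30.5, 57.1 and 48.5 RPKM in iPCKO 1, 2 and 3, which correspond to 984 to 1622 and 1668 to 5842 reads. Numbers of reads, here and for other members, were recovered as the whole numbers that fit all 6 RPKM values under 1 gene length, and that length was inferred for 8 of the 10 members. Every iPCKO sample lay above every control, with iPCKO 1 nearest to them. The log2 fold change was 1.09 (95% interval 0.59 to 1.59, limma adjusted p = 0.0117), the largest of the members tested. Without iPCKO 1 it was 1.35 and passed the thresholds (adjusted p = 0.000709), and the other 5 sets that left out 1 sample gave adjusted p from 0.0158 to 0.0502. With the Y-linked transcripts as a covariate it was 0.83 (adjusted p = 0.219).

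H2-K1 encodes the K heavy chain (ENSMUSG00000061232, chr17:33996017-34000347, minus strand). Its values were 9.32, 12.7 and 10.4 RPKM in controls and 13.9, 27.2 and 16.2 RPKM in iPCKO samples. The groups did not overlap, and iPCKO 2 was far above the other iPCKO samples. The log2 fold change was 0.77 (95% interval 0.24 to 1.29, limma adjusted p = 0.0575), and 0.48 without iPCKO 2. The heavy chain genes have close paralogs, and 6.90% of the 75-base windows of an H2-D1 transcript and 1.55% of those of an H2-K1 transcript also occur in other genes, H2-Q1 among them. A small share of their reads may therefore have been counted elsewhere or not at all.

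B2m encodes the light chain shared by classical and nonclassical class I molecules (ENSMUSG00000060802, chr2:122147686-122153083, plus strand). It was at 214, 175 and 167 RPKM in controls and at 231, 308 and 261 RPKM in iPCKO samples. All iPCKO samples were above all controls, though iPCKO 1 lay close to control 1. The log2 fold change was 0.53 (95% interval 0.20 to 0.86, limma adjusted p = 0.0431). The sum of H2-K1 and H2-D1 was 13.4, 21.4 and 17.1% of the B2m level per kilobase in controls and 19.2, 27.3 and 24.8% in iPCKO samples. These ratios overlapped between the groups, through iPCKO 1 and control 2.

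Tapbp encodes tapasin, which bridges empty class I molecules to the peptide transporter (ENSMUSG00000024308, chr17:33915899-33929292, plus strand). Its values were 23.2, 22.2 and 21.6 RPKM in controls and 23.5, 35.6 and 24.8 RPKM in iPCKO samples. Only iPCKO 2 stood well apart. The log2 fold change was 0.30 (95% interval -0.04 to 0.64, limma adjusted p = 0.222), and 0.11 without iPCKO 2.

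Nlrc5 encodes the class I transactivator (ENSMUSG00000074151, chr8:94434356-94527272, plus strand). It was at 0.325, 0.653 and 0.467 RPKM in controls and at 0.395, 2.81 and 1.78 RPKM in iPCKO samples, or 49, 87 and 124 recovered reads and 64, 853 and 194 recovered reads. Thus iPCKO 2 and 3 were above all controls and iPCKO 1 was among them. Nlrc5 missed the filter of 1 RPKM in 3 samples and was not tested in the main fit. Without the filter, its log2 fold change of 1.3 had a standard error of 0.60 and an adjusted p of 0.225 over 17678 genes by limma. It was 2.05 without iPCKO 1 and 0.77 without iPCKO 2. The rank of the 3 iPCKO samples, with replicate 2 highest and replicate 1 lowest, was the same for H2-K1, H2-D1, B2m, Nlrc5 and, with smaller differences, Tapbp.

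Among class II members, H2-Ab1, the β chain of I-A (ENSMUSG00000073421, chr17:34257689-34269419, plus strand), showed the clearest difference. It was at 5.8, 4.55 and 4.70 RPKM in controls and at 6.67, 7.34 and 8.01 RPKM in iPCKO samples. The groups did not overlap and the iPCKO samples were close together. The log2 fold change was 0.54 (95% interval 0.27 to 0.82, limma adjusted p = 0.0189). Without control 1, the highest control, it was 0.65 and passed the thresholds (adjusted p = 0.00991), and with the Y-linked covariate it was 0.67 (adjusted p = 0.10).

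H2-Aa, the α chain of I-A (ENSMUSG00000036594, chr17:34282744-34287823, minus strand), was at 8.69, 6.70 and 7.14 RPKM in controls and at 9.20, 9.38 and 8.23 RPKM in iPCKO samples. Control 1 lay above iPCKO 3, and the log2 fold change was 0.25 (95% interval -0.01 to 0.52, limma adjusted p = 0.184). H2-Eb1, the β chain of I-E (ENSMUSG00000060586, chr17:34305867-34316674, plus strand), was at 9.26, 6.33 and 7.44 RPKM in controls and at 8.78, 9.14 and 9.53 RPKM in iPCKO samples. Control 1 lay above iPCKO 1 and 2, and the log2 fold change was 0.27 (95% interval -0.04 to 0.57, limma adjusted p = 0.226). Thus control 1 was the highest control for all 5 class II members, whereas control 2 was the highest control for H2-K1, H2-D1 and Nlrc5.

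Cd74, encoding the invariant chain (ENSMUSG00000024610, chromosome 18), was at 30.6, 26.5 and 27.1 RPKM in controls and at 31.0, 34.1 and 34.5 RPKM in iPCKO samples. The groups did not overlap, but iPCKO 1 exceeded control 1 by little, and the log2 fold change was 0.24 (95% interval 0.03 to 0.45, limma adjusted p = 0.115). Ciita, encoding the class II transactivator (ENSMUSG00000022504, chr16:10480059-10528418, plus strand), was at 1.77, 1.5 and 1.59 RPKM in controls and at 1.34, 1.23 and 1.25 RPKM in iPCKO samples. It was the only member whose iPCKO samples all lay below the controls, and the log2 fold change was -0.32 (95% interval -0.65 to 0.02, limma adjusted p = 0.186). These values correspond to 137 to 290 recovered reads in controls and 94 to 256 in iPCKO samples.

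**Figure D2:**
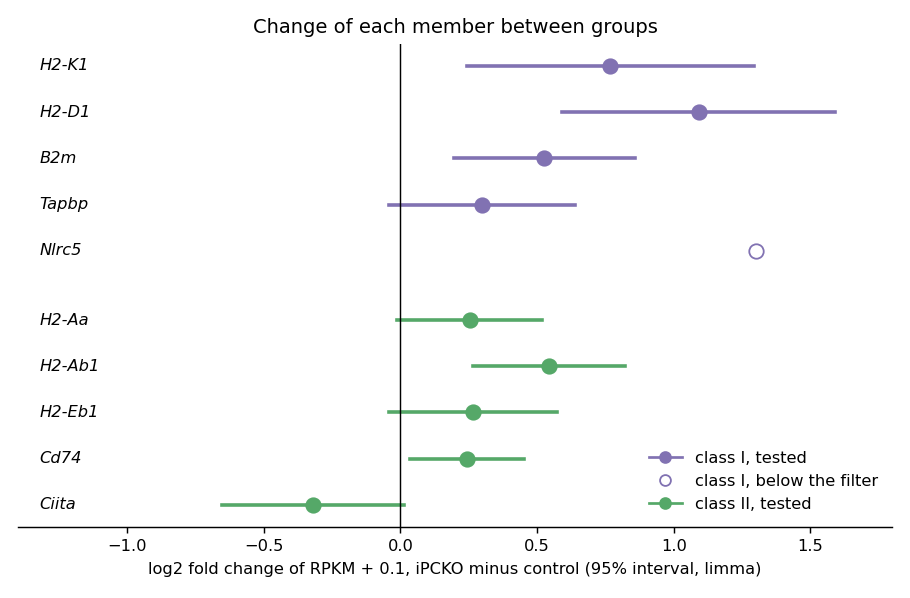
Log2 fold change of RPKM + 0.1, iPCKO minus control, for each member (horizontal axis), with 95% intervals from limma over 3 samples a group. The intervals of H2-K1, H2-D1, B2m, H2-Ab1 and Cd74 lie above 0, and that of Ciita is centred at -0.32. The open symbol marks Nlrc5, which was below the filter and has no interval.

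Class I and class II are set side by side as a description. The median log2 fold change was 0.77 over the 5 class I members and 0.25 over the 5 class II members, a difference of -0.51. Over the 4 class I members tested, which leave out Nlrc5, the median was 0.65, beside 0.00 over all tested genes. The samples of a group did not overlap for 4 of the 4 class I members tested (all above) and for 3 of the 5 class II members (2 above, 1 below), beside 35.5% of tested genes (18.3% above and 17.1% below). The class I mean of log2(RPKM + 0.1), set to the control mean, was -0.08, 0.17 and -0.08 in controls and 0.23, 1.32 and 0.84 in iPCKO samples. The class II mean was 0.19, -0.14 and -0.05 in controls and 0.16, 0.21 and 0.22 in iPCKO samples. The SD over the 3 iPCKO samples was 0.54 for class I and 0.031 for class II. The class I mean and its SD include Nlrc5, which was below the filter and varied widely among iPCKO samples. Within a sample, the class II mean minus the class I mean was -0.76, -1.35 and -1.0 in controls and -1.11, -2.14 and -1.66 in iPCKO samples. The group means of this value differed by -0.60, with a pooled SD of 0.42 within groups. Control 2 lay below iPCKO 1, so the groups overlapped and a difference between the classes was not shown. The difference of -0.51 between the medians was -0.26 without iPCKO 2, -0.31 without control 1 and -0.19 with the Y-linked covariate.

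The ratio of Nlrc5 to Ciita, computed per kilobase, was 0.184, 0.436 and 0.294 in controls and 0.295, 2.29 and 1.42 in iPCKO samples. Nlrc5 thus exceeded Ciita in iPCKO 2 and 3 and was below it in the 4 other samples.

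The wider class I pathway held 22 further genes, 21 of which were tested. Of these 2 rose and none fell, beside 4.11% of all tested genes higher and 2.68% lower. The groups did not overlap for 9 of the 21, all above, beside 18.3% of all tested genes above. The median log2 fold change of the 21 was 0.35, and 17 of them were positive, beside 6015 of all 12034 tested genes. Psmb8, an inducible subunit of the immunoproteasome that cuts peptides for class I, was at 4.84, 4.40 and 4.79 RPKM in controls and at 7.34, 12.8 and 8.82 RPKM in iPCKO samples (log2 fold change 0.99, limma adjusted p = 0.0077). Hfe, a nonclassical class I molecule that regulates iron uptake rather than presenting peptides, was at 3.13, 2.87 and 2.28 RPKM in controls and at 4.72, 4.78 and 4.54 RPKM in iPCKO samples (log2 fold change 0.75, adjusted p = 0.0063). Both lay wholly above the controls, and Hfe did so without the spread among iPCKO samples that marked H2-K1 and H2-D1.

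The following pathway genes were singled out after their values were seen. Erap1, which trims peptides in the endoplasmic reticulum, had a log2 fold change of 0.65 (adjusted p = 0.0182). Psme1 and Psme2, encoding the proteasome activator PA28, had log2 fold changes of 0.45 and 0.44 (adjusted p = 0.0121 and 0.016), below the fold limit. Tap1, a subunit of the peptide transporter, was at 3.27, 3.42 and 3.48 RPKM in controls and at 3.54, 8.35 and 4.68 RPKM in iPCKO samples (log2 fold change 0.60, adjusted p = 0.169). It shared with Tapbp a high value in iPCKO 2 and values near the controls in iPCKO 1. The folding factors Calr, Canx and Pdia3 had log2 fold changes of 0.26, 0.11 and 0.10 and did not pass the test.

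The class II pathway held 16 further genes, of which 10 were tested and 5 stayed under 1 RPKM in every sample. Of the 10, 2 rose and none fell, beside 4.11% of all tested genes higher and 2.68% lower, with a median log2 fold change of 0.14. The groups did not overlap for 6 of the 10 (5 above and 1 below), beside 18.3% of tested genes above and 17.1% below. Ctss, encoding cathepsin S, the protease that trims the invariant chain in antigen-presenting cells, was at 7.47, 13.8 and 7.79 RPKM in controls and at 28.4, 36.5 and 25.5 RPKM in the iPCKO group. The log2 fold change of 1.67 (limma adjusted p = 0.00208) was larger than that of any member. Ifi30, encoding the thiol reductase GILT that unfolds antigens in lysosomes, was at 17.3, 19.4 and 15.4 RPKM in controls and at 27.9, 29.0 and 34.6 RPKM in iPCKO samples (log2 fold change 0.81, adjusted p = 0.00262). In both genes all iPCKO samples were well above all controls. The peptide exchange factor chains H2-DMa and H2-DMb1, named after their values were seen, had log2 fold changes of 0.80 (adjusted p = 0.0197) and -0.02 (adjusted p = 0.952). The costimulatory genes Cd80 and Cd86, named likewise, were under 1 RPKM in every sample.

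Among 17 genes of the transactivation machinery and the interferon-γ pathway, 16 were tested, 1 rose and none fell (4.11% and 2.68% over all tested genes), with a median log2 fold change of 0.01. Irf8, an interferon regulatory factor of myeloid and B cells, was at 6.06, 5.49 and 5.95 RPKM in controls and at 8.74, 9.44 and 8.63 RPKM in iPCKO samples (log2 fold change 0.61, limma adjusted p = 0.00268). Ifng itself, also named after its values were seen, was listed at 0 in all 6 samples. Ifngr1, a chain of its receptor, was at 55 ± 2.95 and 75 ± 12.6 RPKM in control and iPCKO samples (log2 fold change 0.44, adjusted p = 0.0483), and the kinase gene Jak1 at 43.3 ± 2.49 and 41.3 ± 1.51 RPKM. The DNA-binding partners of NLRC5 and CIITA, named after their values were seen, had lower means in iPCKO samples for Creb1 (log2 fold change -0.48, adjusted p = 0.0199), Rfxank (-0.36, adjusted p = 0.0871) and Rfx5 (-0.27, adjusted p = 0.112). The groups did not overlap for these 3 genes. Of the 16 tested genes of the list, 2 lay above without overlap and 3 below, beside 18.3% and 17.1% of all tested genes. The remaining partners in the list, which overlapped between the groups, had log2 fold changes of -0.39 for Nfya, -0.09 for Nfyb, 0.07 for Nfyc and 0.05 for Rfxap, and none of the 7 passed the test.

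**Figure D3:**
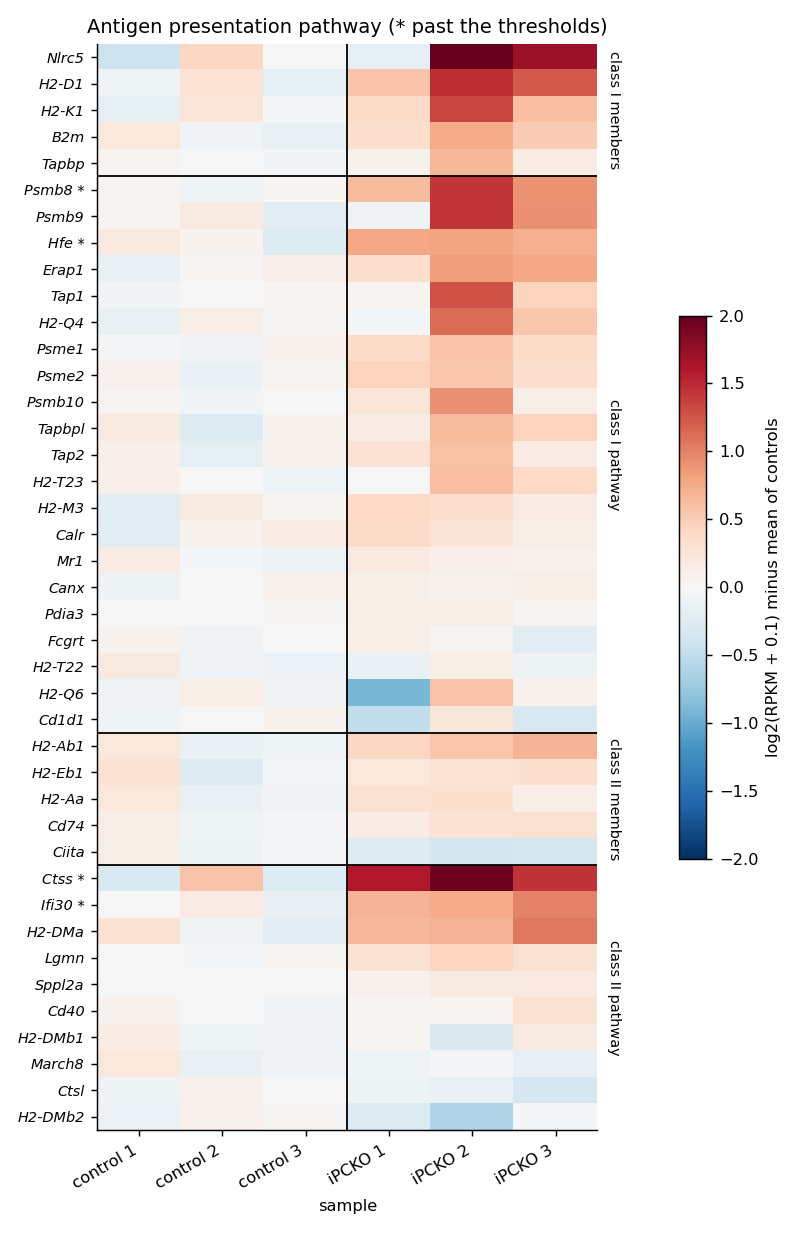
Log2(RPKM + 0.1) minus the control mean (colour, capped at 2 and -2) for the 10 members and the tested genes of the class I and class II pathway lists (rows) in 6 samples (columns), with asterisks on the 4 genes past the thresholds. All 5 class I members are darkest in iPCKO 2, while Calr, Mr1, H2-M3 and Fcgrt of the class I pathway are highest in iPCKO 1 and Hfe is raised alike in all 3 iPCKO samples. The class II chains and Cd74 are pale throughout, whereas Ctss and Ifi30 are raised in all 3.

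Markers of cells that present antigen were measured in the same libraries. Of 10 pan-leukocyte genes, 5 rose (Laptm5, Coro1a, Cd52, Cd53 and Rac2) and none fell, beside 4.11% of all tested genes higher, and their summed level was 60.7 to 75.4 RPKM in controls and 103 to 201 RPKM in iPCKO samples. Of 12 macrophage and monocyte markers, 10 were tested and 2 rose, Marco, a scavenger receptor of alveolar macrophages, and Ccr2, a chemokine receptor of monocytes. For all 10 tested the groups did not overlap, with the iPCKO samples above, beside 18.3% of all tested genes. Their list summed to 23, 32.8 and 23.7 RPKM in controls and to 43.4, 66.0 and 51.7 RPKM in iPCKO samples, in which replicate 2 was highest and replicate 1 lowest, as for the class I members. Neutrophil markers rose for 6 of the 9 tested of 10, beside the same 4.11% of all tested genes, and for them replicate 3 was highest. The part of these cells in the class I and class II values was not tested.

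Dendritic and B cell markers were low in level, and none of those tested was called. Of 10 dendritic cell markers 4 were tested and 0 were called by limma, beside 6.79% of all tested genes. At an unadjusted p below 0.05, 2 were higher and 1 lower, beside 16.1% and 13.6% of all tested genes. Of the 10, 5 stayed under 1 RPKM in every sample (Flt3, Xcr1, Clec9a, Cd209a and Ccl22). Their list summed to 12.9 to 14.6 RPKM in controls and 12.4 to 15.9 in iPCKO samples, of which Zbtb46 gave 3.93 ± 0.332 and 3.60 ± 0.325 and Dpp4 5.21 ± 1.08 and 3.61 ± 0.509 RPKM. The other 2 tested markers, named after their values were seen, lay above all controls in every iPCKO sample, beside 18.3% of all tested genes. Batf3 was at 1.39 ± 0.638 and 3.76 ± 1.21 RPKM (log2 fold change 1.42, limma adjusted p = 0.0306) and Itgax at 0.891 ± 0.0877 and 1.79 ± 0.714 RPKM (log2 fold change 0.86, adjusted p = 0.0704). Of 9 B cell markers in the files, 4 were tested and 0 were called. At an unadjusted p below 0.05, 3 were lower and none higher, beside 13.6% and 16.1% of all tested genes. The B cell list summed to 9.96 to 10.4 RPKM in controls and 4.21 to 8.61 RPKM in iPCKO samples, with Cd79b at 2.60 ± 0.310 and 1.64 ± 0.5 and Ms4a1 at 1.75 ± 0.136 and 0.867 ± 0.582 RPKM. Ciita, a gene that B cells use, was the member with lower values in the same samples, and the part of B cells in it was not tested. All 9 T and NK cell markers in the files were under 1 RPKM in every sample, Cd3g and Cd3d included, with sums of 1.76 to 2.57 RPKM in controls and 2.93 to 3.50 RPKM in iPCKO samples.

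Of 10 alveolar epithelial markers, 2 rose (Sftpb and Hopx) and none fell, beside 4.11% of all tested genes higher and 2.68% lower. The list summed to 507 to 559 RPKM in controls and 637 to 698 RPKM in iPCKO samples. Sftpc, the surfactant gene of type II cells, named after its values were seen, was at 363 ± 22.2 and 454 ± 18.7 RPKM, a log2 fold change of 0.33 (limma adjusted p = 0.0921), beside 0.24 for Cd74. The groups did not overlap for 6 of the 10 markers, all above, beside 18.3% of all tested genes above. Abca3, Lamp3, Epcam and Nkx2-1, named likewise, overlapped, with log2 fold changes of 0.12, 0.06, 0.12 and -0.12. The list was thus not raised throughout. The part of type II cell RNA in the class II values was not tested. The sum of the endothelial list showed no such shift, at 215 to 226 and 209 to 228 RPKM. Of its 10 genes 1 rose (Kdr) and none fell, beside the same 4.11% and 2.68% of all tested genes. The groups did not overlap for 1 gene above and 3 below, beside 18.3% and 17.1% of all tested genes. Egfl7, 1 of those below, was at 61.0 ± 1.81 and 50.2 ± 0.642 RPKM (log2 fold change -0.28, limma adjusted p = 0.0469). Cldn5 was at 38.3 ± 4.51 and 38.3 ± 6.32 RPKM.

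**Figure D4:**
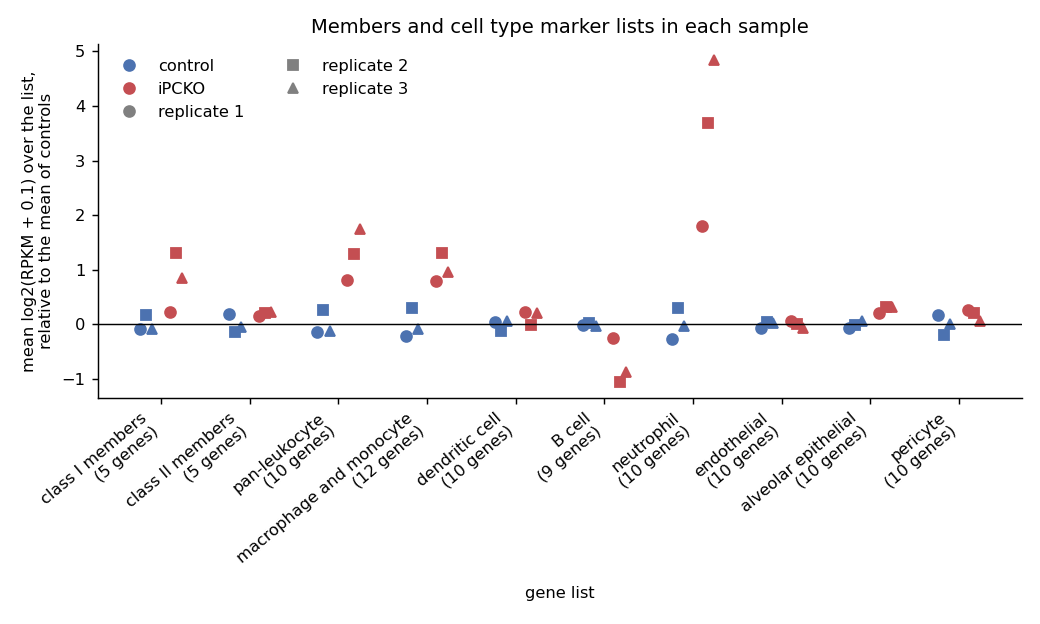
Mean log2(RPKM + 0.1) over each gene list relative to the mean of the controls (vertical axis) in the 3 control (blue) and 3 iPCKO (red) samples, with symbols for the replicate number. The class I mean of the iPCKO samples runs from 0.23 to 1.32 and the class II mean from 0.16 to 0.22, beside 0.79 to 1.3 for macrophage and monocyte markers, 1.8 to 4.84 for neutrophil markers and -1.05 to -0.25 for B cell markers.

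The tested genes whose profiles over the 6 samples lay nearest to the mean of H2-K1, H2-D1 and B2m, by root mean square difference of centred log2(RPKM + 0.1), were Lmna (0.0909), Irf1 (0.116), Slc15a3 (0.116), Gas7 (0.12) and Fn1 (0.125). For comparison, H2-K1 itself differed from that mean by 0.132 and H2-D1 by 0.183. Lmna, encoding the nuclear lamins A and C, rose from 52.0 to 90.9 RPKM in mean (log2 fold change 0.80, limma adjusted p = 0.0054). Irf1, an interferon-induced transcription factor, was at 9.79, 11.1 and 9.68 RPKM in controls and at 11.0, 21.8 and 17.1 RPKM in iPCKO samples. Its iPCKO 2 was highest and iPCKO 1 was among the controls, and it did not pass the test (log2 fold change 0.65, adjusted p = 0.0794). Fn1, encoding fibronectin, was at 104 RPKM in mean in controls and 165 RPKM in iPCKO samples (log2 fold change 0.64, adjusted p = 0.0539).

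Nearest to the mean of H2-Aa, H2-Ab1, H2-Eb1 and Cd74 were Fnbp1 (0.0323), Dmac2 (0.0326), Pym1 (0.0358), Med13l (0.0371) and Taf9 (0.0373). The log2 fold changes of the 5 nearest genes ran from 0.27 for Med13l and Taf9 to 0.36 for Pym1, and none of the 5 passed the thresholds. These distances describe 6 samples that share their libraries.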

How the data were processed

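Ribosome-associated lung RNA of 3 control and 3 Yap1,Wwtr1 iPCKO samples was sequenced. Per the submitters' processing notes, reads were mapped to mm10 with TopHat, counted with HTSeq 0.6.1 and tested with DESeq2. The authors deposited RPKM values, 1 table of 21603 genes per sample. The exon length behind an RPKM is not given in the sources used here. RPKM divides by depth, so samples of different depth have unequal precision.

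Symbols came from GENCODE M21 for 21375 genes. Log2(RPKM + 0.1) of the 12034 genes with at least 1 RPKM in at least 3 samples was fitted with limma 3.58.1 (R 4.3.3, intensity trend, Benjamini-Hochberg adjustment). Genes were called at adjusted p below 0.01 and absolute log2 fold change above 0.5, the thresholds of the study. The fold changes understate changes of genes with low values. The script was tested on simulated data.

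The smallest gene length that turned all 6 RPKM values into whole reads (within 0.02 reads), with the GENCODE length tried first, was found for 99.3% of tested genes, and limma voom on these reads was added after seeing the data. Other alternatives were a replicate block, other pseudocounts, filters, thresholds and scalings, sample weights, no intensity trend, Y-linked transcripts as a covariate, and each sample left out. Members and gene lists were chosen with earlier results of these data known. Named genes are the members, called genes of the pathway and marker lists (where under 2, also the 2 of highest mean), the 5 genes most like each class mean, and Yap1 and Wwtr1. Genes outside this rule are marked in the text or give a count. Promoters came from RefSeq (GRCm38.p6), matched by symbol for 6 of the 10 members. Python 3.11.15, numpy 2.4.6, pandas 2.3.3 and matplotlib 3.10.9 were used.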

Additional observations from a re-analysis of the deposited data

How the results depend on the processing

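Of 19 alternatives, 6 leave the fold change as it is by construction. In the 13 that recompute it, each of the 10 members kept its direction, with log2 fold changes from 0.48 to 1.14 for H2-K1, 0.83 to 1.38 for H2-D1, 0.42 to 0.78 for B2m, 0.11 to 0.60 for Tapbp, 0.73 to 2.05 for Nlrc5, 0.18 to 0.41 for H2-Aa, 0.47 to 0.67 for H2-Ab1, 0.14 to 0.52 for H2-Eb1, 0.20 to 0.32 for Cd74 and -0.41 to -0.20 for Ciita. Counts of calls moved more. Sample weights called 4 class I members (H2-K1, H2-D1, B2m and Tapbp), 1 class II member (H2-Ab1) and 1590 genes in all, against 0, 0 and 817, and the class II minus class I change was then -0.77 against -0.51. At an adjusted p below 0.05, 2 class I members, 1 class II member and 1313 genes passed, and at an absolute log2 fold change above 1, 411 genes. With the Y-linked covariate 119 genes were called. Leaving out 1 sample gave 0 to 1 class I members (1 without iPCKO 1), 0 to 1 class II members (1 without control 1) and 382 (without control 3) to 899 genes, with 414 without iPCKO 2 and 499 without iPCKO 3. Voom called 835 genes and no member. Same-numbered samples deviated together with r of 0.24, 0.09 and 0.02, and control 2 correlated best with iPCKO 3, so the numbers were not taken as pairs. With replicate number as a block, 922 genes and 2 class I members (H2-K1, adjusted p = 0.00478, and H2-D1, 0.00235) were called. The cause of these shifts was not tested, except that fewer samples enter when 1 is left out. Depth limits Nlrc5 most, with 49 recovered reads in its lowest library.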
